A study of Danio rerio with 10 samples.

Results

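The rpgrip1l-/- embryos whose tails stayed straight were set against wild-type (WT) embryos at 2 days post fertilization (dpf). The groups were taken from the sample labels: 2 libraries of rpgrip1l-/- embryos scored as normal-looking and 2 libraries of WT embryos, 4 of the 10 libraries of the series. Each library was made from a pool of 30 to 35 whole zebrafish embryos. The other libraries were 2 of rpgrip1l-/- embryos with a curled-down tail (CDT) at 2 dpf, and at 5 dpf 2 of rpgrip1l-/- larvae and 2 of WT larvae. They are described only beside the straight-tailed embryos. The CDT libraries also enter the joint fit of the 6 libraries at 2 dpf, and so its filter, scaling and estimate of spread. All mutants carried an out-of-frame CRISPR/Cas9 allele on the AB strain and came from several pairs of homozygous mutant parents, so their mothers were mutant too. The WT embryos came from several pairs of AB parents. Genotype, parents and clutch therefore change together between the groups and cannot be told apart. The tail score is known for the mutants at 2 dpf alone, and within a pool the embryos are not resolved.

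Rpgrip1l is a scaffold protein of the transition zone, the gate at the base of the cilium that controls which proteins pass into it. Vertebrate hedgehog signaling runs through the cilium, where the balance of Gli activators and repressors is set with the help of protein kinase A, and motile cilia move cerebrospinal fluid and left-right organizer fluid in the fish embryo. At 2 dpf, the zebrafish embryo is close to hatching, lives on yolk, and is beginning to differentiate its exocrine pancreas, liver, gut and photoreceptors.

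Counts on genes were 9101264 and 12749342 in the straight-tailed libraries, against 15184818 and 13069394 in WT. Marker genes were looked up for muscle, heart, nervous system, lens, blood, vessels, pigment cells, skin and hatching gland. Others stood for notochord, cartilage, liver, yolk syncytial layer, pancreas, kidney and retina. The 44 markers that matched a gene had reads in each of the 4 libraries, and some had no match. On the first principal component, with 63.5% of the variance, the mutant libraries separated from WT, and on the second, with 11.7%, straight-tailed from CDT libraries. The 50 most abundant genes took 24.9% and 24.4% of the counts in straight-tailed mutants, against 30.5% and 31.6% in WT. With 2 pools per group, p-values at 2 dpf rest on the spread between the pools of all 3 groups, CDT included, which may be technical. That spread is largely shared over genes, with 45.26 prior degrees of freedom (median) beside 3 residual ones. A p-value or SE is thus not a measure of a gene's own pools alone. Levels below are CPM, counts scaled to a common library size with TMM, given for pools 1 and 2 in that order. Changes are log2 fold changes of straight-tailed mutants over WT, with their standard error (SE) and a Benjamini-Hochberg adjusted p from edgeR's quasi-likelihood test. A gene was called at an adjusted p under 0.05, and "rose" and "fell" are used of called genes.

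The targeted gene did not separate the genotypes. RPGRIP1L (ENSDARG00000051754) had 22 and 27 counts in straight-tailed mutants, against 20 and 26 counts in WT (log2 fold change 0.01, SE 0.38, edgeR adjusted p = 0.99). The CDT pools had 36 and 18 counts. The transcript level of the targeted gene thus does not check the labels. Among the 20 tested genes placed nearest to it on the RefSeq order, 4 rose and 4 fell. This is near the share of all genes tested, of which 19.2% rose and 20.4% fell. Of the 5 on either side, lsm14aa rose (log2 fold change 0.60, SE 0.13, edgeR adjusted p = 0.000134). Also past the threshold were KIF21A (log2 fold change 0.75, 0.48 to 1.05 with 1 library left out), nfatc3b (0.75, 0.57 to 0.94) and MPHOSPH6 (-0.38, -0.53 to -0.23); each of these calls was lost without 1 of the mutant and without 1 of the WT libraries, and MPHOSPH6 turned to 0.07 with library size alone.

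Straight-tailed embryos differed from WT across a large share of the transcriptome, mostly by small steps. Of 19636 genes tested, 7769 (39.6%) were called, 3764 higher (19.2%) and 4005 lower (20.4%). Most of the calls, 75.4%, were under 2-fold, and the median size of a change over all tested genes was 0.38 on the log2 scale. Changes of at least 2-fold were called for 1319 genes that rose and 591 that fell, and of at least 8-fold for 36 that rose and 56 that fell. Without replicate 2 of the straight-tailed mutants, 2482 genes were higher. The direction followed abundance: the median log2 fold change was 0.37 over the 1717 genes under 1 CPM, 0.16 between 1 and 10 CPM, -0.06 between 10 and 100 CPM, -0.33 between 100 and 1000 CPM and -0.78 over the 172 genes above 1000 CPM, of which 153 fell and 5 rose. Scaling decides where 0 lies in such data. With library size alone the median over all genes stood at 0.46, against 0.01 under TMM, and 90.7% of the calls were higher, against 48.4% under TMM; upper quartile scaling gave 54.7%. Every log2 fold change here is relative to the TMM zero.

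**Figure D1:**
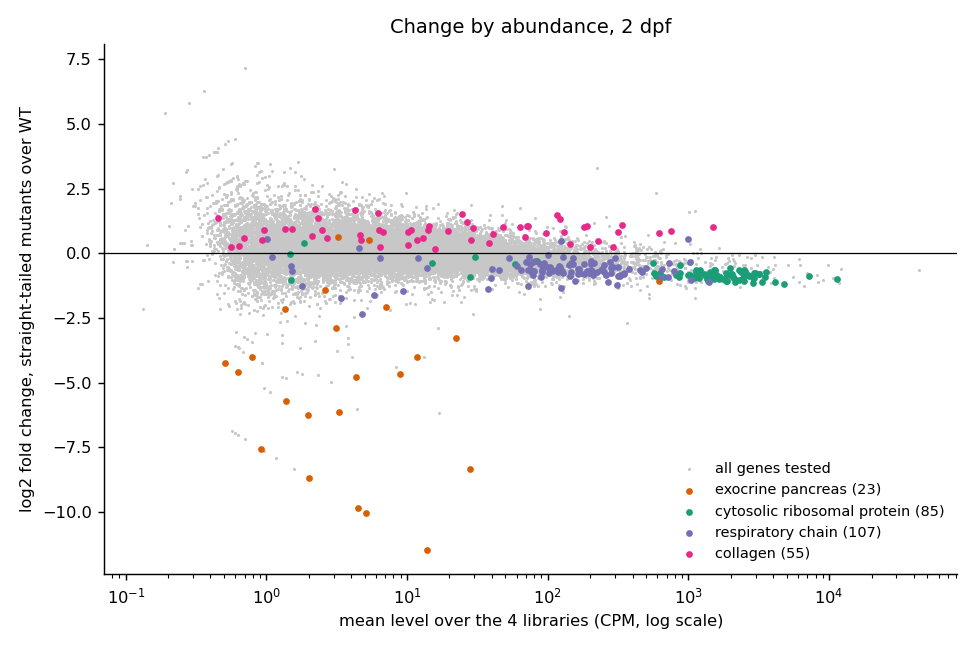
Each point is a gene, with its mean level over the 4 libraries (CPM, log scale) on the horizontal axis and its log2 fold change of straight-tailed mutants over WT on the vertical axis. Of the 23 exocrine pancreas genes, 21 lie below 0, many of them far below the cloud, and 2 above, the 85 cytosolic ribosomal protein genes and 107 respiratory chain genes lie in the abundant, lower part, and the 55 collagen genes lie above 0.

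Digestive enzymes of the exocrine pancreas, whose acinar cells make protease, lipase and amylase precursors, were far lower. The 23 exocrine genes tested had a median log2 fold change of -4.60, or -4.24 with the 5 at 0 in both mutant pools set at their bound. prss59.1, a trypsinogen-family protease, had 0 and 0 counts in straight-tailed mutants, against 312 and 318 counts in WT. prss59.2, its neighbor in the same family, had 2 and 2 counts in straight-tailed mutants, against 654 and 627 counts in WT. No mutant pool came near a WT pool in either gene. Taken as a ratio of summed counts per scaled library, prss59.1 was at least 222-fold lower (3 counts over the mutant pools as the floor) and prss59.2 was 339-fold lower in straight-tailed mutants (95% counting interval 132 to 1244). The 3 chymotrypsinogens were alike. ctrb.1 had 0 and 0 counts in straight-tailed mutants, against 125 and 107 counts in WT, at least 81.8-fold lower. ctrb.3 had 0 and 0 counts in straight-tailed mutants, against 106 and 98 counts in WT, at least 71.9-fold lower, and ctrb.2 had 0 and 0 counts in straight-tailed mutants, against 48 and 44 counts in WT, at least 32.4-fold lower. The curled-tail pools held 0 and 1 counts of ctrb.1 and 0 and 0 of prss59.1. These bounds cover counting error only, and near-identical copies could share or lose reads in the counting.

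Elastases fell too, with a few reads left in the mutants. ela2 had 0.300 and 0.281 CPM in straight-tailed mutants, against 7.69 and 9.0 CPM in WT (log2 fold change -4.80, SE 0.41, edgeR adjusted p = 2.22e-13). ela2l stood at 0.799 and 0.562 CPM in straight-tailed mutants, against 15.8 and 18.7 CPM in WT (log2 fold change -4.68, SE 0.28, edgeR adjusted p = 2.04e-18). Of the 38 exocrine identifiers in the files, 23 passed the low-count filter, 12 of them with at most 3 counts in each mutant pool, so that these passed through WT alone. A fall of these 12 was fixed by the filter. Of the other 11, 9 fell, with a median of -2.16, where 20.4% of all genes tested fell. The split at 3 counts is not the limit of the filter. Members of the 11 such as ela2 were also too low in straight-tailed mutants to pass through them, so this share is in part built in. Over all 23, edgeR called 21 lower and 0 higher. DESeq2 called 17 lower and 0 higher, and at an unadjusted p under 0.05 edgeR had 2 higher, PTF1A and amy2al1. PTF1A, the transcription factor that sets up acinar cells, had 6.6 and 6.11 CPM in straight-tailed mutants, against 4.48 and 4.31 CPM in WT (log2 fold change 0.52, SE 0.23, edgeR adjusted p = 0.0636). Of 17 endocrine genes tested, 4 rose and 2 fell, with a median of -0.13. With only genes of at least 10 counts in every library, the 36 pancreas and gut genes left of 61 had a median of -0.31, against -1.06, with 15 lower and 6 higher. In whole-embryo pools, fewer cells of a type and less RNA per cell cannot be told apart.

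**Figure D2:**
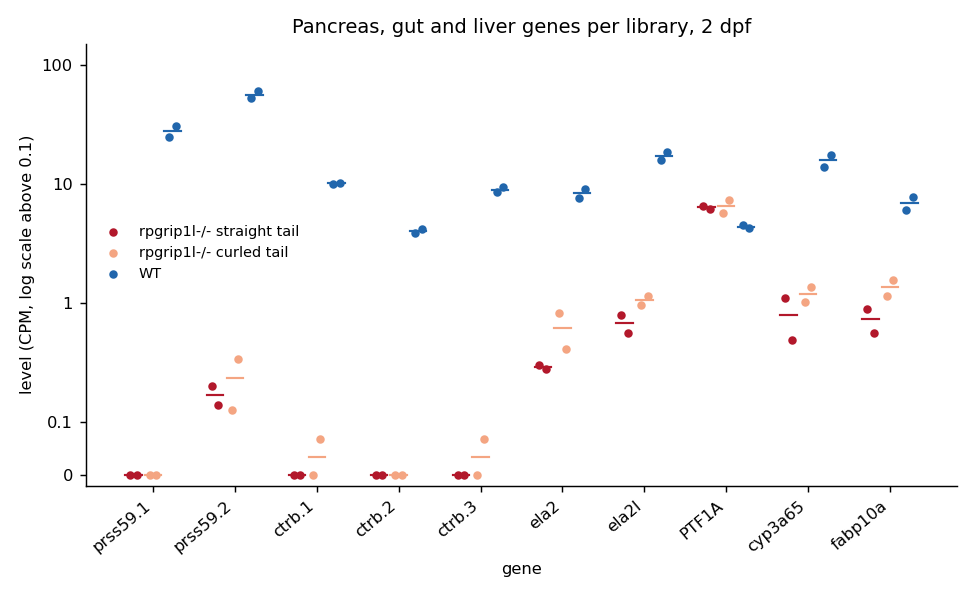
Levels of 10 genes of pancreas, gut and liver at 2 dpf in CPM (log scale above 0.1), 2 points per group for its 2 pools and a bar for their mean, with straight-tailed mutants, curled-tail mutants and WT from left to right. Both kinds of mutant lie at or near 0 for the proteases, while PTF1A lies at 6.60 and 6.11 CPM in straight-tailed mutants, above 4.48 and 4.31 CPM in WT.

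Gut and liver genes were lower as well. cyp3a65, a cytochrome P450 of the larval gut and liver, had 1.1 and 0.492 CPM in straight-tailed mutants, against 14 and 17.6 CPM in WT (log2 fold change -4.38, SE 0.29, edgeR adjusted p = 7.23e-17, -4.98 to -3.83 with 1 library left out). fabp10a, the liver fatty acid-binding protein, had 0.899 and 0.562 CPM in straight-tailed mutants, against 6.01 and 7.75 CPM in WT (log2 fold change -3.26, SE 0.36, edgeR adjusted p = 2.98e-10). FABP2, its intestinal relative, had 183 and 170.4 CPM in straight-tailed mutants, against 432 and 471 CPM in WT (log2 fold change -1.35). In all 3 genes the mutant pools lay below the WT pools, which with 2 pools per group is no test. cyp3a65 and fabp10a were too low in straight-tailed mutants to pass the low-count filter through them. They were tested through other groups, so their falls are in part built in. Of 21 intestinal genes tested, 14 fell and 1 rose, a share that may be built in part in the same way. Of 98 genes of liver and yolk lipid transport, 63 fell and 6 rose, with a median of -0.57. With library size alone the median was -0.11, with 29 called lower and 22 higher. The list holds some of the most abundant transcripts of the embryo. apoa2, an apolipoprotein made in the yolk syncytial layer and liver, had 7719 and 7662 CPM in straight-tailed mutants, against 14247 and 15592 CPM in WT (log2 fold change -0.96, SE 0.08, edgeR adjusted p = 7.96e-14). F9, coagulation factor IX, had 10.1 and 8.36 CPM in straight-tailed mutants, against 26.3 and 25.5 CPM in WT (log2 fold change -1.50). Of 9 liver regulators, 5 fell, the furthest by 0.99 on the log2 scale.

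In the eye, cone opsins were lower and lens genes more often rose. The 4 cone opsin genes tested had 0 to 7 counts in a straight-tailed library, against 20 to 69 counts in a WT library, so that they passed the low-count filter through WT and a fall of each was fixed by it. OPN1SW, a short-wavelength cone opsin, had 2 and 2 counts in straight-tailed mutants, against 69 and 59 counts in WT, and was 33.8-fold lower in straight-tailed mutants (95% counting interval 12.9 to 126). GNAT2, the cone transducin alpha subunit, had 1.6 and 1.54 CPM in straight-tailed mutants, against 5.05 and 5.45 CPM in WT (log2 fold change -1.73, SE 0.32, edgeR adjusted p = 1.53e-05). Of the retinal transcription factors, crx and VSX1 rose. crx, which drives photoreceptor differentiation, had 20.2 and 34.8 CPM in straight-tailed mutants, against 9.53 and 11.3 CPM in WT (log2 fold change 1.43, SE 0.16, edgeR adjusted p = 6.25e-10). VSX1, a homeobox factor of retinal interneurons and their precursors, had 24.6 and 43.9 CPM in straight-tailed mutants, against 14.5 and 16.3 CPM in WT (log2 fold change 1.18, SE 0.16, edgeR adjusted p = 2.15e-08). For both, straight-tailed pool 1 lay well below pool 2, and still above either WT pool. Over the 68 retina genes tested, 15 rose (22.1%) and 12 fell (17.6%), near the 19.2% and 20.4% of all genes tested.

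Among 59 lens crystallins and lens structural genes, 24 rose and 7 fell, with a median of 0.25; 16 to 19 rose and 4 to 7 fell with 1 library left out. crybb1l1, a beta crystallin, had 663 and 630.4 CPM in straight-tailed mutants, against 397 and 387 CPM in WT (log2 fold change 0.72, SE 0.09, edgeR adjusted p = 2.04e-09). BFSP1, the lens intermediate filament protein filensin, had 9.99 and 12.9 CPM in straight-tailed mutants, against 4.4 and 2.78 CPM in WT (log2 fold change 1.67, SE 0.21, edgeR adjusted p = 8.04e-09). The most abundant gene of the list, the crystallin CRYBA2, fell. It had 875 and 861 CPM in straight-tailed mutants, against 1180 and 1108 CPM in WT (log2 fold change -0.40, SE 0.08, edgeR adjusted p = 0.00015).

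Collagens were higher. All 55 collagen chain genes tested had a positive log2 fold change, 41 of them called (36 by DESeq2), with a median of 0.86. No collagen was lower, 0 also by DESeq2 and 0 at an unadjusted p under 0.05, and the median was positive under all 13 alternatives tried. col1a1a, the main fibrillar collagen chain of skin and fin folds, had 2163 and 1844 CPM in straight-tailed mutants, against 1051 and 931 CPM in WT (log2 fold change 1.02, SE 0.10, edgeR adjusted p = 1.15e-11). COL1A1 (ENSDARG00000035809), another type I chain, had 1063 and 884 CPM in straight-tailed mutants, against 562 and 506 CPM in WT (log2 fold change 0.87), and COL1A2, its partner chain, 848 and 704 CPM in straight-tailed mutants, against 468 and 437 CPM in WT (0.78). The mutant pools lay above the WT pools in all 3 genes. The rule that named COL1A1 and COL1A2 took only genes without overlap, so their separation was fixed in advance. COL11A1 (ENSDARG00000026165), a chain of cartilage and notochord sheath fibrils, had 495 and 430.0 CPM in straight-tailed mutants, against 226 and 204 CPM in WT (log2 fold change 1.1, SE 0.10, edgeR adjusted p = 6.19e-13). COL4A4, a basement membrane chain, had 6.4 and 6.6 CPM in straight-tailed mutants, against 1.76 and 2.39 CPM in WT (log2 fold change 1.66, SE 0.27, edgeR adjusted p = 2.92e-06). vcanb, the core protein of the proteoglycan versican, had 77.7 and 69.9 CPM in straight-tailed mutants, against 21.9 and 19.3 CPM in WT (log2 fold change 1.83, SE 0.13, edgeR adjusted p = 4.47e-16). MATN1, the cartilage matrix protein matrilin 1, was lower, with 6 and 3 counts in straight-tailed mutants, against 44 and 48 counts in WT (log2 fold change -3.40, SE 0.50, edgeR adjusted p = 2.46e-07). Too low in straight-tailed mutants to pass the low-count filter through them, it was tested through other groups, so its fall is in part built in. Notochord genes rose more often than they fell, 16 against 3 of 32 tested. Cartilage and bone genes split into 9 higher and 6 lower of 24, where 19.2% of all genes tested rose and 20.4% fell.

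Protocadherins, adhesion proteins of neurons, rose more often than they fell. Of 38 tested, 20 rose and 1 fell, with a median of 0.91, and DESeq2 called 12 higher and 1 lower. pcdh1g22, a clustered protocadherin, had 6.99 and 9.13 CPM in straight-tailed mutants, against 1.92 and 2.78 CPM in WT (log2 fold change 1.81, SE 0.25, edgeR adjusted p = 4.92e-08). l1camb, an adhesion protein of growing axons, had 5.5 and 5.9 CPM in straight-tailed mutants, against 1.28 and 0.861 CPM in WT (log2 fold change 2.38, SE 0.32, edgeR adjusted p = 4.19e-08). The pair of genes with the symbol NAV1, neuron navigators of migrating neurons, had 3.9 and 4.56 CPM in straight-tailed mutants, against 0.721 and 0.670 CPM in WT for ENSDARG00000058771, with a log2 fold change of 2.60. For ENSDARG00000078011, the levels were 3.9 and 4.0 CPM in straight-tailed mutants, against 0.881 and 0.574 CPM in WT, with a log2 fold change of 2.4. MMP24, a membrane-bound metalloproteinase of neurons, had 5.6 and 5.55 CPM in straight-tailed mutants, against 1.2 and 0.957 CPM in WT (log2 fold change 2.35). DYNC1H1, the heavy chain of cytoplasmic dynein 1, had 18.2 and 14.3 CPM in straight-tailed mutants, against 3.28 and 3.16 CPM in WT (log2 fold change 2.32, SE 0.20, edgeR adjusted p = 1.95e-13). mtus2a (log2 fold change 2.29) and pcbp3 (2.37), a microtubule-associated and an RNA-binding protein, were also among the 12 with the largest increase. So was 5_8S_rRNA (ENSDARG00000081218), a ribosomal RNA gene that poly(A) selection should deplete, with 66 and 78 counts in straight-tailed mutants, against 13 and 7 counts in WT (log2 fold change 2.77, SE 0.36, edgeR adjusted p = 1.68e-08). Reads aligned to several places made up 6.17% and 6.03% in straight-tailed mutants, against 4.05% and 3.48% in WT, and the part of RNA or library quality in these results was not tested. The SCN8A copies, voltage-gated sodium channels of axons, had log2 fold changes of 1.29 and 1.82. Of 58 neuronal genes, 17 rose and 5 fell (11 and 3 by DESeq2), where 19.2% of all genes tested rose and 20.4% fell. mbpa, a myelin basic protein gene of oligodendrocytes, had 0 and 0 counts in straight-tailed mutants, against 13 and 14 counts in WT. It passed the low-count filter through WT, so a fall was fixed by it. DESeq2 gave it no adjusted p, and without WT replicate 2 it had no value.

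The most abundant transcripts of the embryo were lower, in several families at once. Of 85 cytosolic ribosomal protein genes, 81 fell (79 by DESeq2) and 0 rose by edgeR, by DESeq2 or at an unadjusted p under 0.05. Their median log2 fold change was -0.84, or -0.39 with library size alone. RPS2 had 7859.7 and 7246 CPM in straight-tailed mutants, against 14821 and 15282 CPM in WT (log2 fold change -0.99, SE 0.08, edgeR adjusted p = 2.40e-14). RPL11 had 2892 and 2901 CPM in straight-tailed mutants, against 6429 and 6722 CPM in WT (log2 fold change -1.18, SE 0.08, edgeR adjusted p = 2.95e-16). Both proteins are parts of the cytosolic ribosome. Of 76 mitochondrial ribosomal protein genes, 57 fell (43 by DESeq2), and their median of -0.44 turned to 0.01 with library size alone, with 8 called lower and 13 higher. Of 107 respiratory chain and ATP synthase genes, 92 fell and 2 rose, with a median of -0.64, or -0.19 with library size alone. The 13 mitochondrially encoded genes among them were unequal, with 10 lower and 2 higher. MT-CO2, a subunit of cytochrome c oxidase, had 1202 and 1185 CPM in straight-tailed mutants, against 786 and 823 CPM in WT (log2 fold change 0.57, SE 0.08, edgeR adjusted p = 2.37e-07), while the median of the 13 was -1.04. Proteasome subunits (20 of 51 lower, 2 higher) and translation factors (37 of 80 lower, 9 higher) had medians of -0.21 and -0.23 that turned to 0.24 and 0.22 with library size alone. Under that scaling 1 proteasome subunit was called lower and 27 higher, and 6 translation factors lower and 32 higher.

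**Figure D3:**
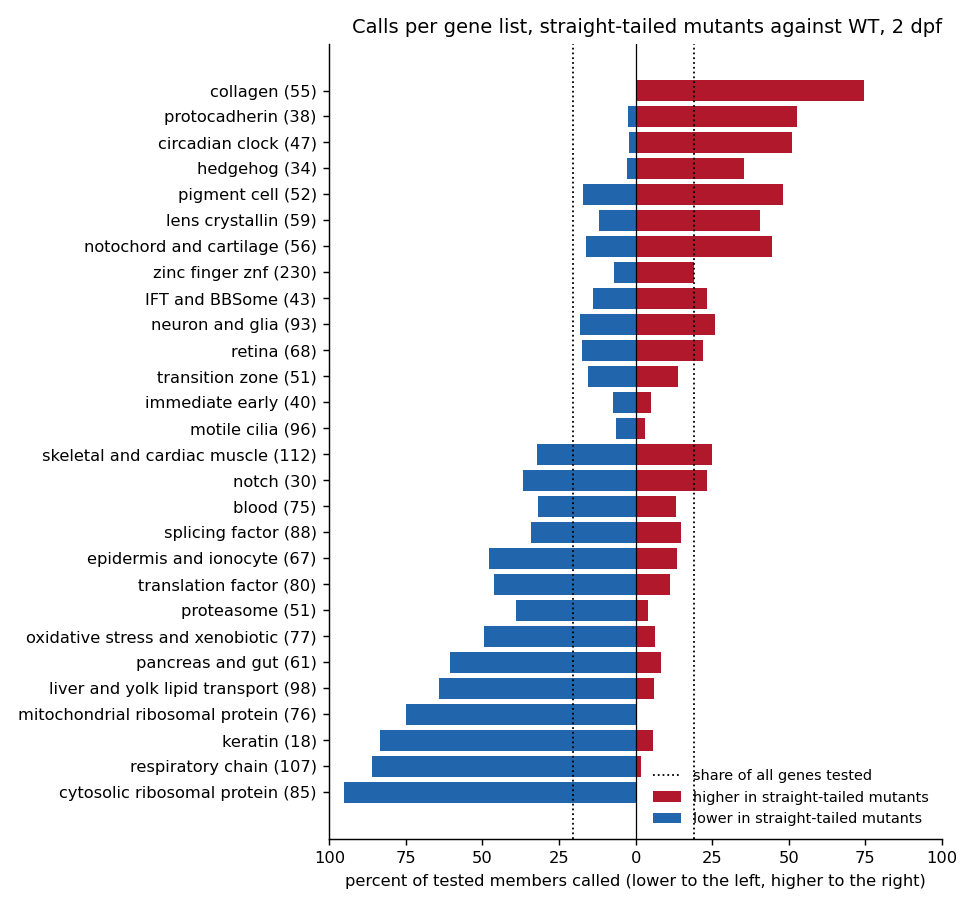
Percent of the tested members of 28 gene lists that were called lower (blue, to the left) and higher (red, to the right) in straight-tailed mutants against WT, with the number tested in parentheses and dotted lines at the shares of all genes tested, 20.4% and 19.2%. Cytosolic ribosomal protein, respiratory chain and keratin genes reach furthest to the left and collagens furthest to the right, and motile cilia genes stay inside both lines.

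Keratins fell as a list, and muscle genes split. krt4, a keratin of the outer skin layer, had 35477 and 31694 CPM in straight-tailed mutants, against 50914 and 55012 CPM in WT (log2 fold change -0.66, SE 0.07, edgeR adjusted p = 5.86e-10). cyt1l, a type I cytokeratin, had 7664 and 7179 CPM in straight-tailed mutants, against 13989.5 and 15354 CPM in WT (log2 fold change -0.98, SE 0.08, edgeR adjusted p = 2.40e-14). The keratin krt5 had 3027 and 2811 CPM in straight-tailed mutants, against 2951 and 3097 CPM in WT (log2 fold change -0.05, SE 0.08, edgeR adjusted p = 0.658). Of 18 keratins tested, 15 fell and 1 rose, with a median of -0.56, or -0.11 with library size alone. Of 39 epidermis genes, 25 fell and 3 rose; the median of epidermis and ionocyte genes together was -0.28 and turned to 0.17 with library size alone. pvalb1, the calcium buffer parvalbumin of fast muscle, had 7241 and 7499.6 CPM in straight-tailed mutants, against 15304 and 17039 CPM in WT (log2 fold change -1.13, SE 0.08, edgeR adjusted p = 5.30e-16). The fast myosin heavy chain myhz2 was on the other side, with 179 and 182 CPM in straight-tailed mutants, against 92.9 and 79.3 CPM in WT (log2 fold change 1.06, SE 0.09, edgeR adjusted p = 1.66e-13). Fast muscle genes split into 20 lower and 11 higher of 39, and sarcomere genes into 6 lower and 10 higher of 35. The shares over all genes tested were 20.4% lower and 19.2% higher. NEB, the giant thin-filament protein nebulin, had 34.5 and 36.9 CPM in straight-tailed mutants, against 18.2 and 14.9 CPM in WT (log2 fold change 1.1, SE 0.13, edgeR adjusted p = 7.47e-10). All 6 globin genes of the blood list that were tested fell, with a median of -0.86, a list that lacks HBE1 and hbae4, and hbbe3, an embryonic beta globin, had 619 and 503 CPM in straight-tailed mutants, against 1315 and 1346 CPM in WT (log2 fold change -1.25, SE 0.09, edgeR adjusted p = 4.86e-16). he1.1, the hatching enzyme, had 502 and 524 CPM in straight-tailed mutants, against 1174 and 1254 CPM in WT (log2 fold change -1.24, SE 0.08, edgeR adjusted p = 7.21e-17), and 6 of 11 hatching gland genes fell.

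Pigment cell genes rose more often than they fell. Of 14 xanthophore genes, 9 rose and 1 fell, of 13 melanophore genes 6 rose and 3 fell (6 and 1 by DESeq2), and of 17 iridophore genes 8 rose and 5 fell (4 and 4 by DESeq2). csf1ra, the receptor that xanthophores and macrophages need, had 7.99 and 7.09 CPM in straight-tailed mutants, against 2.24 and 2.11 CPM in WT (log2 fold change 1.78, SE 0.25, edgeR adjusted p = 7.94e-08). The lowest log2 fold change of the iridophore genes was that of PAICS, an enzyme of purine synthesis, which had 727 and 699 CPM in straight-tailed mutants, against 1577 and 1533 CPM in WT (log2 fold change -1.12, SE 0.09, edgeR adjusted p = 5.53e-15). In the pronephros, 17 of 72 genes rose (23.6%) and 14 fell (19.4%), with 11 and 11 by DESeq2. These shares were near those of all genes tested, 19.2% and 20.4%. SLC12A1, the sodium-potassium-chloride cotransporter of the distal tubule, had 1.1 and 1.47 CPM in straight-tailed mutants, against 4.24 and 5.45 CPM in WT (log2 fold change -1.87, SE 0.34, edgeR adjusted p = 1.39e-05).

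The copies of RRM2 differed. The copy ENSDARG00000020711, a small subunit of ribonucleotide reductase, had 2 and 9 counts in straight-tailed mutants, against 282 and 465 counts in WT (log2 fold change -6.17, SE 0.32, edgeR adjusted p = 5.87e-21). The other copy, ENSDARG00000078069, had 223 and 234 CPM in straight-tailed mutants, against 227 and 203 CPM in WT (log2 fold change 0.09, edgeR adjusted p = 0.449). The first copy's log2 fold change lay between -7.31 and -5.62 with 1 library left out. Its counts in straight-tailed mutants were too low to pass the low-count filter. It passed through other groups, so a fall is in part built in. Of 86 genes of DNA replication and cell cycle, 18 rose (20.9%) and 20 fell (23.3%), near the 19.2% and 20.4% of all genes tested. Their median was -0.05, and -0.10 to -0.02 with 1 library left out. The copies share a symbol, and reads could be split between them.

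Few motile cilia genes were called. Of 96 motile cilia genes, 3 rose (3.13%) and 6 fell (6.25%), beside 19.2% and 20.4% of all genes, and the list's median of -0.09 turned to 0.36 with library size alone. Of 51 transition zone and basal body genes, 7 rose (13.7%) and 8 fell (15.7%), below the shares of all genes tested. DESeq2 called 2 of them higher and 5 lower. tmem107, a membrane protein of the MKS module, had 7.39 and 7.65 CPM in straight-tailed mutants, against 16.2 and 15.9 CPM in WT (log2 fold change -1.09, SE 0.17, edgeR adjusted p = 6.84e-07). CC2D2A, of the same module, had 8.99 and 8.85 CPM in straight-tailed mutants, against 4.32 and 4.88 CPM in WT (log2 fold change 0.96, SE 0.21, edgeR adjusted p = 0.000208). CEP76, a centriolar protein that limits centriole duplication, had 3.3 and 2.74 CPM in straight-tailed mutants, against 8.97 and 9.38 CPM in WT (log2 fold change -1.62, SE 0.23, edgeR adjusted p = 1.37e-07). Within the MKS module as a whole, 2 of 19 genes rose and 2 fell. Of 43 intraflagellar transport and BBSome genes, 10 rose and 6 fell, against 2 and 3 by DESeq2, and 4 to 8 rose and 3 to 5 fell with 1 library left out. The median of 0.15 turned to -0.06 without straight-tailed replicate 2. Among them, 6 of 10 motor genes rose (2 by DESeq2). KIF3A, a kinesin-2 motor subunit, had 26.7 and 27 CPM in straight-tailed mutants, against 19.3 and 19.5 CPM in WT (log2 fold change 0.47, SE 0.12, edgeR adjusted p = 0.00182). rfx3, a transcription factor of ciliary genes, had 4.9 and 4.35 CPM in straight-tailed mutants, against 2.16 and 2.11 CPM in WT (log2 fold change 1.1, SE 0.30, edgeR adjusted p = 0.00235). MEIG1, known from spermatid development in mice, had 5.4 and 6.18 CPM in straight-tailed mutants, against 10.9 and 11 CPM in WT (log2 fold change -0.91, SE 0.19, edgeR adjusted p = 0.000154).

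Within the hedgehog pathway, all 4 Gli genes tested rose. GLI1, at once a transcription factor and a readout of the pathway, had 8.99 and 9.9 CPM in straight-tailed mutants, against 4.48 and 3.45 CPM in WT (log2 fold change 1.24, SE 0.21, edgeR adjusted p = 5.27e-06). GLI3, the main repressor form, had 7.29 and 8.01 CPM in straight-tailed mutants, against 4.24 and 3.35 CPM in WT (log2 fold change 1.0, SE 0.22, edgeR adjusted p = 0.000302). The GLI2 copies had 4.8 and 5.55 CPM in straight-tailed mutants, against 2.88 and 1.53 CPM in WT for ENSDARG00000020884 (log2 fold change 1.21), and 11.4 and 10.8 CPM in straight-tailed mutants, against 7.53 and 5.93 CPM in WT for ENSDARG00000025641 (0.71), the second no longer called without WT replicate 2. Of 16 receptors and signal transducers, 7 rose (4 by DESeq2, and 3 to 5 with 1 library left out). The receptor PTCH1, also a pathway target, was among them, with 19.8 and 23.4 CPM in straight-tailed mutants, against 12.8 and 11.1 CPM in WT (log2 fold change 0.86, SE 0.15, edgeR adjusted p = 5.86e-06). Of 10 other targets, 1 rose, where 19.2% of all genes tested rose. The ligand ihha had 2.3 and 2.11 CPM in straight-tailed mutants, against 5.21 and 4.12 CPM in WT (log2 fold change -1.09, SE 0.31, edgeR adjusted p = 0.00397); that call was lost without straight-tailed replicate 2, without WT replicate 1 and with library size alone.

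Protein kinase A subunits differed among themselves. PRKAR1A (ENSDARG00000076128), a type I regulatory subunit, had 9.39 and 9.76 CPM in straight-tailed mutants, against 52.1 and 46 CPM in WT (log2 fold change -2.35, SE 0.13, edgeR adjusted p = 1.80e-20). The curled-tail pools had 38.9 and 37.9 CPM. prkar1ab, annotated as another type I alpha subunit gene, had 10.4 and 9.55 CPM in straight-tailed mutants, against 6.49 and 5.84 CPM in WT (log2 fold change 0.68, SE 0.19, edgeR adjusted p = 0.00336). Of 6 regulatory subunits, 3 rose and 2 fell, and of 4 catalytic subunits 1 fell. cAMP synthesis and breakdown enzymes had 6 of 15 higher. Beside these small counts, 19.2% of all genes tested rose and 20.4% fell.

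Notch receptors and targets moved in opposite directions. All 4 receptors rose, NOTCH1 (ENSDARG00000052094) with 12.6 and 11.9 CPM in straight-tailed mutants, against 3.28 and 4.98 CPM in WT (log2 fold change 1.58, SE 0.21, edgeR adjusted p = 1.85e-08) and NOTCH3 with 51.5 and 52.3 CPM in straight-tailed mutants, against 29.2 and 28 CPM in WT (log2 fold change 0.86, SE 0.10, edgeR adjusted p = 3.06e-09). The ligand jag1b rose as well, with 17 and 14.9 CPM in straight-tailed mutants, against 8.81 and 7.94 CPM in WT (log2 fold change 0.91, SE 0.16, edgeR adjusted p = 7.43e-06). Of 18 targets, 11 fell and 1 rose (8 and 1 by DESeq2). her15.1, a hairy-related repressor switched on by notch in neural progenitors, had 24 and 20.9 CPM in straight-tailed mutants, against 54.4 and 61.3 CPM in WT (log2 fold change -1.37, SE 0.11, edgeR adjusted p = 3.51e-14). The notch list as a whole had a median of -0.07, which turned to 0.38 with library size alone, where 3 of its genes fell in place of 11. In the Wnt list, 11 of 66 genes rose (16.7%) and 8 fell (12.1%), below the 19.2% and 20.4% of all genes tested. DESeq2 called 6 higher and 3 lower in this list. LRP5, a Wnt coreceptor, had 15.6 and 19 CPM in straight-tailed mutants, against 9.69 and 7.27 CPM in WT (log2 fold change 1.03, SE 0.16, edgeR adjusted p = 1.35e-06), and SFRP1 (ENSDARG00000057678), a secreted Wnt antagonist, had 14.1 and 18.3 CPM in straight-tailed mutants, against 37.5 and 52.8 CPM in WT (log2 fold change -1.45, SE 0.14, edgeR adjusted p = 4.92e-12). FGF receptors had 4 of 7 higher (1 by DESeq2, and 1 to 3 with 1 library left out), FGFR1 (ENSDARG00000011027) with 32 and 29.2 CPM in straight-tailed mutants, against 18.9 and 17.7 CPM in WT (log2 fold change 0.73), while of 19 FGF ligands 1 fell.

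Clock genes were higher as a group. Of 47 tested, 24 rose and 1 fell, with a median of 0.50. Those that rose were 8 of 11 period and cryptochrome repressors (6 by DESeq2), 3 of 6 activators, 3 of 4 light-induced repair genes and 10 of 26 output and accessory genes. The labels do not give the day or hour at which clutches were collected. The part of collection time in the clock values was not tested. PER3 had 27.4 and 24.9 CPM in straight-tailed mutants, against 7.37 and 6.6 CPM in WT (log2 fold change 1.89, SE 0.15, edgeR adjusted p = 1.31e-14). PER2, which light induces in fish tissues, had 31.9 and 34.3 CPM in straight-tailed mutants, against 10.6 and 12.7 CPM in WT (log2 fold change 1.52, SE 0.14, edgeR adjusted p = 6.28e-13). The cryptochrome CRY1 (ENSDARG00000045768) had 52.2 and 51.3 CPM in straight-tailed mutants, against 35.2 and 38.3 CPM in WT (log2 fold change 0.50, SE 0.10, edgeR adjusted p = 0.000106). cry5, of the cryptochrome and photolyase family, had 18.9 and 18.5 CPM in straight-tailed mutants, against 8.73 and 10.6 CPM in WT (log2 fold change 0.96, SE 0.15, edgeR adjusted p = 1.06e-06), and tefb, a light-responsive PAR bZIP factor, 23.8 and 19.5 CPM in straight-tailed mutants, against 9.37 and 10.34 CPM in WT (log2 fold change 1.13, SE 0.15, edgeR adjusted p = 2.62e-08).

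Oxidative stress and xenobiotic genes had a median of -0.39, which turned to 0.06 with library size alone. Of 40 Nrf2 targets, 22 fell and 2 rose. NQO1, a quinone reductase, had 67.1 and 66.2 CPM in straight-tailed mutants, against 183 and 196 CPM in WT (log2 fold change -1.50, SE 0.09, edgeR adjusted p = 7.35e-19), and HMOX1, heme oxygenase, had 46.7 and 39.96 CPM in straight-tailed mutants, against 102 and 102 CPM in WT (log2 fold change -1.24, SE 0.10, edgeR adjusted p = 6.98e-15). Of 56 heat shock genes, 16 fell and 6 rose (10 and 3 by DESeq2); hsp70.3 had 5.3 and 4.07 CPM in straight-tailed mutants, against 21.2 and 14.6 CPM in WT (log2 fold change -1.97, SE 0.28, edgeR adjusted p = 1.07e-07), a call that DESeq2 did not make, and 3.44 and 13.7 CPM in the CDT pools. The heat shock shares were 28.6% lower and 10.7% higher, beside 20.4% and 19.2% of all genes tested. Of 40 immediate early genes, 2 rose (5.00%) and 3 fell (7.5%), below those shares of all genes. FOS was the larger of the increases, with 5.7 and 5.9 CPM in straight-tailed mutants, against 2.16 and 2.3 CPM in WT (log2 fold change 1.38, SE 0.28, edgeR adjusted p = 8.86e-05).

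Straight-tailed and curled-tail embryos of the same genotype differed at few genes. Of the 19636 genes, 187 (0.952%) were called between straight-tailed and CDT mutants, 58 higher and 129 lower in straight-tailed embryos, and DESeq2 called 78. This count was 62 to 246 with 1 library left out, 81 without straight-tailed replicate 1 and 62 without replicate 2. Of the 55 collagens, 4 were higher in straight-tailed than in CDT mutants, and of the 107 respiratory chain genes 2 were higher and 1 lower. Other lists had more calls. Of 75 blood genes 7 were lower and 0 higher, and of 56 notochord and cartilage genes 6 were higher and 1 lower. Epidermis and ionocyte genes had 4 lower and 1 higher of 67. The comparison with CDT uses the same straight-tailed libraries as that with WT, and CDT against WT the same WT libraries, so the values below are given side by side. Most genes named below were picked as called against both groups, so their separation in straight-tailed embryos was largely fixed in advance.

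PRKAR1A stood apart from both other groups, at 9.39 and 9.76 CPM in straight-tailed mutants, against 38.9 and 37.9 CPM in CDT mutants and 52.1 and 46 CPM in WT (straight-tailed over CDT: log2 fold change -2.0, SE 0.13, edgeR adjusted p = 1.69e-16). smpd2a, a neutral sphingomyelinase, had 4.4 and 4.49 CPM in straight-tailed mutants, against 15.5 and 15 CPM in CDT mutants and 17.6 and 15.7 CPM in WT (log2 fold change -1.77, SE 0.17, edgeR adjusted p = 3.88e-10 over CDT). In both genes the CDT pools lay closer to WT than to straight-tailed mutants. PRKAR1A was nonetheless lower in CDT mutants than in WT (log2 fold change -0.35, edgeR adjusted p = 0.00491). SFRP1 was alike, at 14.1 and 18.3 CPM in straight-tailed mutants, against 31.5 and 40.6 CPM in CDT mutants and 37.5 and 52.8 CPM in WT (log2 fold change -1.13, SE 0.14, edgeR adjusted p = 2.60e-07 over CDT), and was also lower in CDT mutants than in WT (-0.32, edgeR adjusted p = 0.0364). In other genes CDT lay further from WT. ACP5, the tartrate-resistant acid phosphatase, had 45.4 and 42.1 CPM in straight-tailed mutants, against 91.7 and 89.3 CPM in CDT mutants and 249 and 226 CPM in WT (log2 fold change -1.05, SE 0.09, edgeR adjusted p = 1.79e-11 over CDT). HBE1 (ENSDARG00000113599), a globin, had 92.1 and 101 CPM in straight-tailed mutants, against 120.4 and 156 CPM in CDT mutants and 611 and 649 CPM in WT (log2 fold change -0.52, SE 0.10, edgeR adjusted p = 0.000952 over CDT). DAO, D-amino acid oxidase, had 33.1 and 31.4 CPM in straight-tailed mutants, against 47.5 and 45.1 CPM in CDT mutants and 148 and 140.5 CPM in WT (log2 fold change -0.53, SE 0.10, edgeR adjusted p = 0.00106 over CDT).

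Genes higher in straight-tailed embryos than in either of the other groups included regulators. SIK1, a salt-inducible kinase, had 33.4 and 27.5 CPM in straight-tailed mutants, against 16.8 and 17.7 CPM in CDT mutants and 12.4 and 11.2 CPM in WT (log2 fold change 0.81, SE 0.13, edgeR adjusted p = 5.49e-05 over CDT). MEF2C, a muscle transcription factor, had 25.8 and 30.4 CPM in straight-tailed mutants, against 18.2 and 19.6 CPM in CDT mutants and 12.9 and 9.57 CPM in WT (log2 fold change 0.58, SE 0.13, edgeR adjusted p = 0.00881 over CDT). UHRF1, which maintains DNA methylation, had 34.8 and 36.1 CPM in straight-tailed mutants, against 28.4 and 22.4 CPM in CDT mutants and 16 and 18 CPM in WT (log2 fold change 0.48, SE 0.12, edgeR adjusted p = 0.0227 over CDT). In all 3, the 2 CDT pools lay below both straight-tailed pools and above both WT pools. Being called against both groups was part of how genes were picked here. That straight-tailed pools lay above the others was thus largely fixed in advance, while CDT above WT was not. FOXQ1, a forkhead factor, had a log2 fold change over CDT of 0.47 and over WT of 1.55, the chemokine gene cxl34b.11 of 0.98 and 1.55, and vcanb of 0.50 and 1.83. MT-CO2 was at 1202 and 1185 CPM in straight-tailed mutants, against 770.3 and 867 CPM in CDT mutants and 786 and 823 CPM in WT (log2 fold change 0.54, SE 0.08, edgeR adjusted p = 3.84e-05 over CDT).

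**Figure D4:**
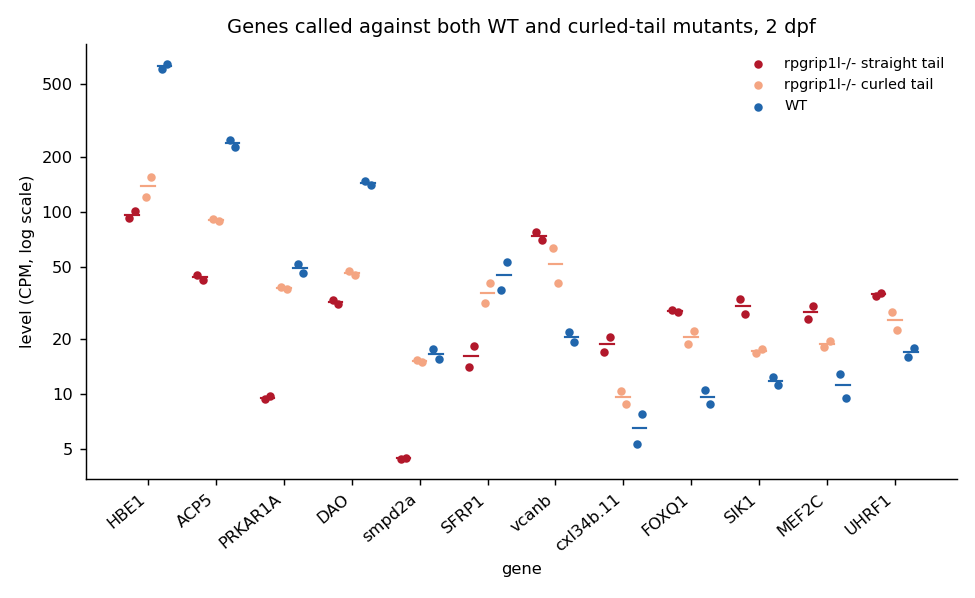
Levels in CPM (log scale) of 12 genes called in straight-tailed mutants against both WT and curled-tail mutants, 2 points per group for its 2 pools and a bar for their mean, with straight-tailed mutants, curled-tail mutants and WT from left to right. For PRKAR1A, smpd2a and SFRP1 the curled-tail points lie closer to WT than to straight-tailed mutants.

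At 5 dpf, where the labels of the mutant larvae give no tail score, 771 of 20071 genes were called between mutants and WT (3.84%), 257 higher and 514 lower. These libraries share none with 2 dpf. Among the 18724 genes tested at both ages, 232 were lower at both, which is 5.94% of the 3908 that fell in straight-tailed embryos, where 2.49% of all genes fell at 5 dpf, and 49.7% of the 467 that fell at 5 dpf, where 20.9% of all genes fell at 2 dpf. Higher at both were 70 genes, 1.93% of 3620 (1.22% of all genes rose at 5 dpf) and 30.6% of 229 (19.3% of all genes rose at 2 dpf). Exocrine enzymes were lower at both ages. Of 23 exocrine genes, 20 were lower at 5 dpf, with a median of -1.06, against -4.60 at 2 dpf. prss59.1 had a log2 fold change of -1.28 at 5 dpf (edgeR adjusted p = 0.00905) and ctrb.1 of -1.06 (0.00730). RRM2 (ENSDARG00000020711) was lower at both ages, with -3.51 at 5 dpf (edgeR adjusted p = 0.000418), and crx and VSX1 were higher at both, with 0.86 and 0.98 at 5 dpf.

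Ribosomal protein, respiratory chain and collagen genes had few calls at the later age, as did all genes tested, of which 3.84% were called. At 5 dpf, 2 of 85 cytosolic ribosomal protein genes were lower. Of 107 respiratory chain genes 3 were lower and 2 higher, and of 53 collagens 2 were higher and 2 lower. Of 98 genes of liver and yolk lipid transport 18 were lower, of 76 oxidative stress and xenobiotic genes 10 were lower, and of 67 retina genes 11 were higher and 2 lower. The opsin OPN1SW had a log2 fold change of 0.28 at 5 dpf (edgeR adjusted p = 0.180). Clock genes had calls in the other direction, since 10 of 47 were lower at 5 dpf and 0 higher by edgeR (1 at an unadjusted p under 0.05), among the lower ones 6 of the 11 period and cryptochrome genes, against 8 higher at 2 dpf. PER2 had log2 fold change -1.93, SE 0.21, edgeR adjusted p = 0.000120 at 5 dpf, cry5 -0.90 and CRY1 -0.68. PER3 stood at 0.19 (edgeR adjusted p = 0.376). DAO, lower at 2 dpf, was higher at 5 dpf (log2 fold change 2.48, SE 0.45, edgeR adjusted p = 0.00527). Of 40 immediate early genes, 21 were higher at 5 dpf.

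**Figure D5:**
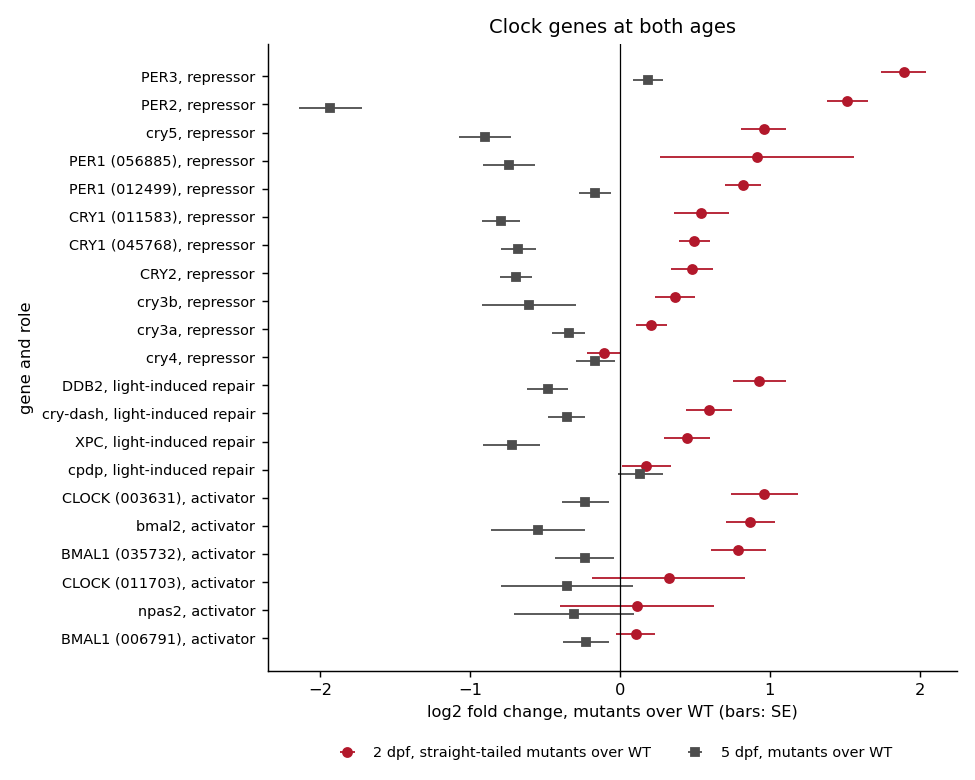
Log2 fold change of mutants over WT for 21 clock genes with their role, at 2 dpf (red circles, straight-tailed mutants) and at 5 dpf (grey squares), with SE bars. Most of the repressor and repair genes lie to the right of 0 at 2 dpf and to the left of it at 5 dpf, with PER3 and cpdp on the right at both ages.

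Genes with the steepest climb with age were often lower in straight-tailed embryos. Age was first read from mutants, as 5 dpf mutants over CDT mutants at 2 dpf. A gene low in both kinds of mutant at 2 dpf is more readily chosen in this way, so its share of lower genes is in part built in. Of 199 genes at least 16-fold higher at 5 dpf, 86 (43.2%) fell in straight-tailed mutants and 6 (3.02%) rose, with a median log2 fold change of -0.70. Of 939 at least 4-fold higher, 22.7% fell, near the share of all genes, and 7.77% rose. Of 490 genes at least 4-fold lower at 5 dpf, 34.9% fell and 18.0% rose. All genes tested had 20.4% lower and 19.2% higher. The 199 include the pancreatic enzymes and opsins described above. Read from WT instead, as 5 dpf over 2 dpf, an alternative added after seeing the data that shares the WT libraries and favors genes low in WT, 226 genes were at least 16-fold higher, of which 35.0% fell and 11.9% rose. Of 1242 at least 4-fold higher in WT, 13.04% fell and 23.27% rose, the other direction to that read from mutants, and of 602 at least 4-fold lower, 53.7% fell and 1.66% rose. The part of developmental stage in these values was not tested.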

How the data were processed

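The authors isolated RNA from pools of 30 to 35 whole embryos, selected poly(A) RNA and sequenced pairs of 150 bp reads, which they trimmed with TrimGalore 0.4.4, aligned to GRCz11 with STAR 2.7.3a and counted with HTSeq-count 0.12.3 at its default. The deposited values are these raw counts of 32057 genes; the authors' counters of reads on no single gene were left out. Whether the libraries kept strand is not given in the sources used here, so overlapping and antisense genes are uncertain.

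Counts of the 6 libraries at 2 dpf were fitted together in edgeR 4.0.16 (R 4.3.3; TMM, filter on low counts by group, quasi-likelihood test, 3 residual degrees of freedom, Benjamini-Hochberg over all 19636 genes tested), the 4 libraries at 5 dpf separately (2 degrees of freedom). An SE is the log2 fold change divided by the root of its F statistic. Tested on simulated counts of 19242 genes for this comparison, the test called 187 of 200 changed genes (58 of 67 at 2-fold) and 13 unchanged ones. The changed genes were drawn from well-counted genes with both directions balanced, and the spread was taken from edgeR's own fit. The simulation therefore does not give the missed or false calls of the real comparison, where 39.6% of genes were called. Replicates differed beyond counting noise, most of all in CDT. The chi-square per degree of freedom was 2.71 in straight-tailed mutants, 5.62 in CDT mutants and 2.95 in WT. Folds near 0 use summed counts per scaled library, with exact 95% intervals and a floor of 3 counts over the group; intervals cover counting error only.

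The comparison, gene lists and named-gene rule were chosen with earlier results of these data known. The rule took rpgrip1l and its 5 neighbors on each side. Further genes came from called genes with a symbol, at least 2 CPM and no overlap with WT. In each direction these were the 12 largest changes, the 6 largest differences in CPM and the 6 largest also called against CDT. From each list the rule took up to 3 called members per direction with at least 2 CPM, with overlap allowed. It also took the most abundant member of each list. cry5, CRY1, PTF1A, PTCH1, prkar1ab, KIF3A, tefb, mbpa, NEB, amy2al1, krt5, myhz2, the second GLI2 and RRM2 copies and the cone opsins were chosen after their values were seen. Results for some genes are not reported here. Symbols came from a table that names 28988 of the 32057 identifiers; copies can share one. Neighbor order came from RefSeq on GRCz12tu, another assembly than the authors', which placed 69.1% of the tested genes. The part of gene length in these results was not tested. Alternatives were DESeq2 1.42.0, other scalings, filters and samples, counts drawn down to the smallest library, the replicate number as a covariate, and each library left out.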

Additional observations from a re-analysis of the deposited data

Results flagged for a closer look

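For 4338 of 21016 genes, the difference between mutants and WT changed between 2 dpf (straight-tailed mutants over WT) and 5 dpf (mutants over WT). This was read from an interaction term in the fit of all 10 libraries, at an edgeR adjusted p under 0.05. Genotype, parents and clutch change together in it, and the 5 dpf larvae have no tail score. Values are the log2 fold change over WT at 2 dpf minus that at 5 dpf. Among pancreas, gut and liver genes the difference was -10.28 for prss59.1, -7.17 for prss59.2, -9.06 for ctrb.1, -3.14 for fabp10a, -4.01 for cyp3a65 and -0.46 for apoa2. The values of prss59.1 and ctrb.1 are fitted from 0 counts in straight-tailed mutants, depend on the prior count and are no bounds. In the retina it was -5.36 for OPN1SW. It was 0.68 for col1a1a and 1.68 for vcanb. Among abundant transcripts it was -0.79 for krt4, -0.79 for pvalb1, -0.87 for RPS2 and -0.83 for RPL11, and HBE1 had -1.69. For signaling and replication genes, RRM2 had -2.74, GLI1 had 1.44, PRKAR1A had -1.70 and her15.1 had -0.60. In the clock it was 3.38 for PER2, 1.63 for PER3, 1.78 for cry5 and 1.1 for CRY1. NQO1 had -1.13, HMOX1 had -0.74 and DAO had -4.71.

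Reads outside the gene counts were also set against WT. Reads on no gene made up 46.1% and 46.4% in straight-tailed mutants, against 45.7% and 45.6% in WT. Reads aligned to several places made up 6.17% and 6.03% in straight-tailed mutants, against 4.05% and 3.48% in WT. Reads under the alignment quality limit made up 0.0280% and 0.0243% in straight-tailed mutants, against 0.0176% and 0.0155% in WT. The other classes were lower in the mutants. Reads not aligned made up 4.70% and 4.50% in straight-tailed mutants, against 6.24% and 6.72% in WT. Reads on overlapping genes made up 0.483% and 0.490% in straight-tailed mutants, against 0.536% and 0.545% in WT. What these reads hold was not analysed here.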

How the results depend on the processing

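DESeq2 called 5097 genes, 2262 higher and 2835 lower, against 7769 by edgeR. With library size alone, 9733 genes were higher and 997 lower. Calls of at least 2-fold numbered 1910, 1319 higher and 591 lower. With 1 library left out, which leaves a group with 1 sample assumed to vary like the others, the count of calls was 5387 to 6131, higher genes 2482 to 2929 and lower genes 2905 to 3202. Against CDT mutants, DESeq2 called 78 genes (29 higher, 49 lower), and with 1 library left out 62 to 246 were called (25 to 100 higher, 37 to 146 lower).

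Replicate numbers did not pair the pools, since the correlation of their deviations was 0.02 between straight-tailed mutants and WT, with 0.06 and 0.04 for the other pairs of groups. The fit with the replicate block called 8008 genes, 3879 higher and 4129 lower.

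For 98 of the named genes, 1255 values were read under 13 alternatives. Of these, 1231 were counted as unchanged, 18 lost the call, 4 gained one and 2 turned with a call. A turn of sign without a call was counted as unchanged. RPGRIP1L, at 0.01, ran from -0.29 to 0.46, and krt5 reached 0.0005 with 1 library left out. The DESeq2 value of mbpa, without an adjusted p, was also counted as unchanged. The 2 were MPHOSPH6 at 0.0721 and krt5 at 0.40, both with library size alone. The lost calls were of KIF21A, nfatc3b, MPHOSPH6, ihha, hsp70.3 and 1 copy of GLI2. Genes under 10 counts in a library gave no value under that filter, nor mbpa without WT replicate 2. Of 663 list medians, 273 moved by more than the spread between replicates and 24 of 51 lists had the other sign with library size alone. The cause was not tested.

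Depth limits genes of a few counts, such as the proteases, to bounds. The labels do not say how many collections the pools of a group cover, and parents differ with genotype.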
